A study of Rattus norvegicus with 6 samples.

Results

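The regions described here lie on chrUn, the part of rat genome build rn4 that holds sequence not placed on any chromosome. They were chosen by position alone: probes with a chrUn address were joined where they lay less than 1000 bp apart, and groups of at least 3 probes were kept. This gave 99 unplaced regions with 885 probes, out of 16023 regions tested on the array, of which 15365 lay on chr1 to chr20. The regions are numbered Un1 to Un99 in the order of their coordinates.

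Sequence stays unplaced when an assembly cannot tie it to a chromosome, which often happens with repeated or duplicated DNA. chrUn is an artificial string of such pieces, so neighbours on it need not be neighbours in the genome. Methylated DNA immunoprecipitation (MeDIP) pulls down DNA fragments with an antibody against 5-methylcytosine, a mark of many silent promoters and of most repeats in mammals. The pulled-down DNA (IP) and the unselected genomic DNA (input) are hybridised together, and the ratio of IP to input is read as relative methylation. The input signal of a probe depends on how much DNA in the genome can bind it and on the probe's own chemistry, and not on methylation.

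The tissue was lumbar spinal cord from male rats at day 14 after surgery, 3 with sham surgery (Sham 1 to 3) and 3 with chronic constriction injury (CCI 1 to 3), a nerve ligation model of neuropathic pain. The labels name a separate rat for each array; no strain, age or cell purification is given, so each array averages all cell types of the cord. DNA arrays carry no RNA or protein markers, so the tissue label could not be checked. By the scan date in the headers, Sham 1 to 3 and CCI 3 were scanned together, and so were CCI 1 and CCI 2. Arrays scanned together are taken here to share a slide (slide 1 and slide 2), as no slide label was read. The number of arrays, 3 in each group, limits the precision.

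An unplaced region held a median of 9 probes (range 3 to 21), against 10 on chr1 to chr20, and spanned a median of 1656 bp against 1665 bp. The median of the mean probe length was 47.9 nt in unplaced regions and 48.3 nt in placed ones. Array designs commonly use longer probes where G and C are scarce, and probe length can affect signal, so each region was set against chr1 to chr20 regions of the same mean probe length (bins of 1 nt) on the same array. The result, called the matched difference below, is on the log2 scale, and 0 is the median of the matched placed regions. Of the unplaced probe values, 57.0% were well above background in the input and 76.1% in the IP, against 51.3% and 73.2% on chr1 to chr20. Per array, the unplaced input share ran from 42.9% on Sham 1 and 44.6% on CCI 3 to 75.3% on CCI 2, while the IP share stayed between 74.9% and 77.2%. No unplaced spot was saturated.

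Most unplaced regions lay inside the range of placed regions of like probe length, and a small set had far more input signal. The median matched difference of the 99 regions was 0.10 ± 0.02 in the input on the sham arrays and 0.15 ± 0.04 on the CCI arrays (mean ± SD, n = 3 each). The IP median was 0.01 ± 0.03 in sham and 0.01 ± 0.02 in CCI, and the ratio median was -0.06 ± 0.06 and -0.05 ± 0.05. Only the input median lay above 0 on every array (range 0.08 to 0.20). What set the unplaced regions apart was their spread: the SD over regions was 0.918 in the input against 0.647 on chr1 to chr20, and 0.849 against 0.483 in the ratio. In the ratio this spread came from the tails, since the interquartile range was 0.588 for unplaced and 0.588 for placed regions. These comparisons with placed regions are descriptions and carry no test.

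A region was counted as standing apart when it lay above the 95th percentile, or below the 5th, of its matched placed regions on all 6 arrays. In the input 11 of 99 unplaced regions stood above, or 11.1%, where 2.69% of chr1 to chr20 regions did, and 2 stood below (background 1.44%). In the ratio 7 stood below, or 7.07%, where 1.91% of placed regions did, and 2 stood above (background 1.52%). In the IP 6 stood above (background 4.29%) and 4 below (background 3.9%). The number above in the IP depended on the processing: it was 10, or 10.1% (background 4.33%), when probe number was matched too, and 9, or 9.09% (background 4.33%), with normexp. With matching by 3 classes of the share of 45 nt probes it was 4, or 4.04% (background 4.36%). Over probes well above background in both channels it was 3 of the 63 regions left, or 4.76% (background 4.33%). Taken chromosome by chromosome, the share above in the input ran from 1.48% to 4.49% (highest on chromosome 9), and the share below in the ratio from 0.805% to 4.44% (highest on chromosome 12). The sham arrays alone gave 11 regions above in the input (background 3.18%) and 7 below in the ratio (background 2.41%). The CCI arrays alone gave 11 (background 3.36%) and 9 (background 2.75%).

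The 2 classes overlapped. Of the 11 high-input regions 5 were also low-ratio regions, which is 45.5% of the first class and 71.4% of the second. On chr1 to chr20 the overlap was 57 regions, 13.8% and 19.5% of the same classes. A placed region with high input usually had high IP as well: 56.0% of them stood above in both channels. Among the unplaced high-input regions this held for 1 of 11, Un32. Across the 99 regions the matched differences of input and IP had a Pearson r of 0.51, against 0.75 over the 15365 placed regions. Both channels come from the same arrays and probes, so these correlations are given as descriptions.

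**Figure D1:**
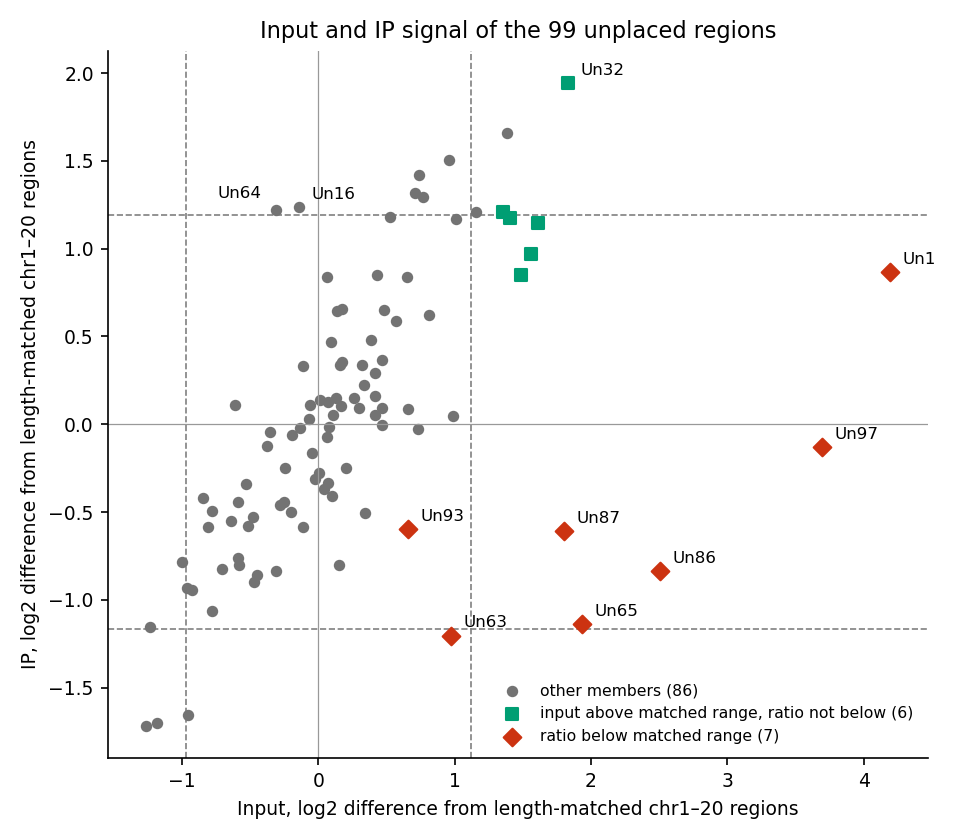
Matched difference in the input (x axis) and in the IP (y axis), both log2, for the 99 unplaced regions; each point is the mean of 6 arrays and the dashed lines are the 5th and 95th percentiles of chr1 to chr20 regions. The 7 low-ratio regions (diamonds) sit to the right of 0, 6 of them below 0 in the IP and Un1 above it at 0.87, with Un1 and Un97 more than 3 log2 units to the right of 0, and Un32 is high in both channels.

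Un1 was the extreme case, at chrUn:426940-428670 with 11 probes, all of them well above background in both channels on all 6 arrays. Its input level, log2 processed intensity minus the array median, was 5.41, 5.22 and 5.25 on Sham 1 to 3 and 5.16, 5.13 and 5.81 on CCI 1 to 3. The 6-array mean of 5.33 was the highest input level of all 16023 tested regions. Its matched difference of 4.14 ± 0.05 in sham and 4.25 ± 0.47 in CCI (n = 3 each) corresponded to 18.3-fold more input signal over the 6 arrays, and 5 placed regions had a larger one. All 11 probes lay more than 1 log2 unit above placed probes of their own length, from 1.99 to 6.31. The IP did not follow to the same extent: its level was 1.81, 1.61 and 1.86 in sham and 2.08, 1.96 and 3.07 in CCI. The ratio was therefore low on every array, at -3.22, -3.32 and -3.17 in sham and -2.83, -2.93 and -2.51 in CCI, and 10 placed regions had a lower matched ratio difference. CCI 3 stood above the other 5 arrays in both channels. When Un1 was set only against placed probes well above background in both channels on all arrays, its input difference was 2.53 and its ratio difference -3.18.

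Un97 (chrUn:65045626-65046391, 3 probes) had the next highest matched input difference, 3.43 ± 0.31 in sham and 3.97 ± 0.20 in CCI, which is 13.0-fold. Its ratio was the lowest of all unplaced regions, at -4.06, -4.64 and -4.73 in sham and -4.79, -4.50 and -4.93 in CCI. The groups overlapped in the ratio, and no array was above -4. The IP was close to that of matched regions, with a matched difference of -0.29 ± 0.11 in sham and 0.02 ± 0.12 in CCI. The probe at chrUn:65045626-65045684 was not well above background in the IP on any array, so its part of the ratio is only a limit.

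Un86 (chrUn:59948743-59950149, 6 probes) had a matched input difference of 2.40 ± 0.38 in sham and 2.62 ± 0.40 in CCI. Its ratio was -3.20, -3.68 and -3.79 in sham and -3.40, -3.90 and -4.00 in CCI, and the groups overlapped, with the highest value in sham and the lowest in CCI. The low ratio was uneven along the region: the 3 probes that were never well above background in the IP had ratios of -5.91, -6.39 and -4.01, and the probe at chrUn:59949894-59949938 had -0.19. Over the 3 probes well above background in both channels the input difference was -0.22 and the ratio difference -2.07, both set against placed probes that passed the same filter. That filter also removes placed probes with dim input from the comparison. Against all placed probes of their own length, the 6 probes of Un86 lay 0.83 to 4.68 higher in the input.

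Un65 (chrUn:38413134-38413576, 3 probes) had a ratio of -2.98, -3.35 and -3.42 in sham and -3.12, -3.17 and -2.96 in CCI. Its matched input difference was 1.93 ± 0.31 and 1.94 ± 0.10. Only 1 of its 3 probes was well above background in the IP, and that probe, at chrUn:38413377-38413421, had an input level of 4.91 and a ratio of -0.83. The groups overlapped in the ratio, with Sham 2 and Sham 3 below every CCI array.

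Un87 (chrUn:62209071-62210755) held 7 probes of 45 nt, the shortest length on the array, all well above background in the input on all arrays. Its input level was 2.97, 3.09 and 2.96 in sham and 2.79, 2.90 and 2.93 in CCI. Its ratio was -2.13, -2.27 and -2.17 in sham and -1.91, -2.01 and -1.99 in CCI, a matched difference of -2.47 ± 0.11 and -2.26 ± 0.10. Neighbouring probes differed widely here: the ratio was -4.48 at chrUn:62209071-62209115 and -1.68 at chrUn:62209230-62209274 although these probes are adjacent. Over the 4 probes well above background in both channels the matched ratio difference was -0.93.

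**Figure D2:**
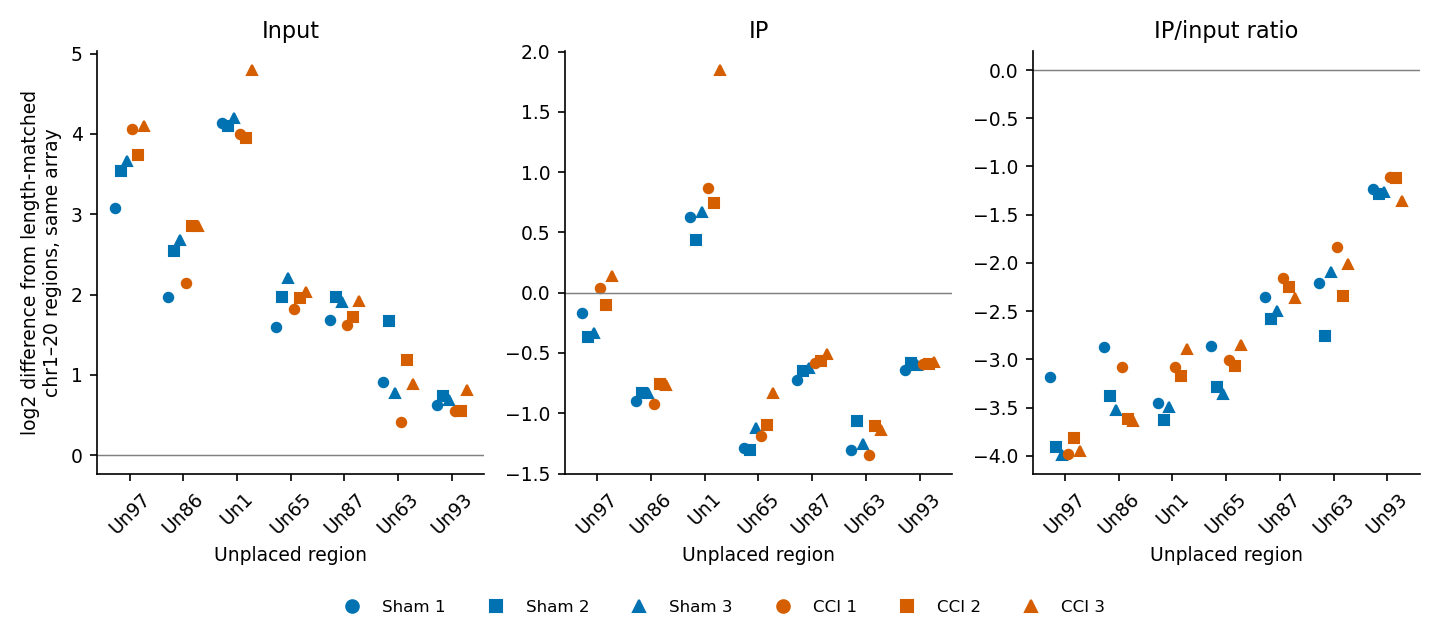
Matched difference (log2, y axis) of the 7 low-ratio unplaced regions in the input, the IP and the IP/input ratio, with 1 point per array (sham blue, CCI orange, symbols for replicates 1 to 3) and 0 marking the matched placed regions. Every ratio point is below -1, 5 regions are above 1.5 in the input on every array, and CCI 3 is the highest point of Un1 in both channels.

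Normexp background correction, which raises dim values, kept these directions with smaller sizes. The matched input difference was then 3.00 in Un1 and 1.88 in Un97, and the matched ratio difference was -2.12 in Un97, -1.64 in Un86 and -1.06 in Un65.

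The other low-ratio regions had less input excess. Un63 (chrUn:30721479-30721854, 3 probes) was never well above background in the IP and was so in 50% of its input values, so its ratio of -3.80 to -3.00 over the 6 arrays is no measured level. With normexp its matched ratio difference went from -2.21 to -0.49. Un93 (chrUn:64557045-64559878) had 16 probes and the smallest deficit of the 7, with a matched ratio difference of -1.26 ± 0.03 in sham and -1.19 ± 0.14 in CCI. It was named after its values were seen. Its input difference was 0.68 ± 0.05 and 0.64 ± 0.15, and its IP difference -0.61 ± 0.03 and -0.59 ± 0.01. Over its 6 probes well above background in both channels the ratio difference was -1.08.

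The remaining 6 high-input regions did not have ratios below the matched range on all 6 arrays. Un32 (chrUn:24766248-24767927, 9 probes) had an input level of 2.51, 2.26 and 2.32 in sham and 2.17, 2.16 and 2.16 in CCI. Its IP level was 2.14, 1.95 and 2.04 in sham and 1.97, 1.92 and 2.06 in CCI. Input and IP were raised alike, by 1.83 and 1.94 over matched regions, and the matched ratio difference was 0.06 ± 0.05 in sham and 0.16 ± 0.06 in CCI. The input values of sham and CCI did not overlap, but the difference of -0.20 (SE 0.12) had a limma adjusted p of 1.00. Un4, Un40, Un42, Un61 and Un69, singled out after their values were seen, had matched input differences of 1.41, 1.56, 1.61, 1.36 and 1.49. Their IP differences were also above 0, from 0.85 in Un69 to 1.21 in Un61, and their ratio differences lay between -0.63 and -0.16. Over probes well above background in both channels the ratio difference was lower in Un69, at -1.76 (3 probes), and in Un4, at -0.84 (6 probes). Under that filter the input differences of Un4, Un40, Un42, Un61 and Un69 were 1.70, 0.35, 0.69, 1.90 and 3.23. High input did not hold for every probe. In the same order, 6 of 11, 6 of 8, 9 of 14, 3 of 8 and 4 of 9 probes lay more than 1 log2 unit above placed probes of their own length.

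At the low end of the input stood Un56, Un20, Un71 and Un17, with matched differences of -1.27, -1.23, -1.18 and -1.0. All were dim: 25% of the input values of Un56 (chrUn:25762271-25762794) were well above background, 3.33% of those of Un20 (chrUn:15014878-15015735), 23.3% of those of Un71 (chrUn:42781995-42783628) and none of those of Un17 (chrUn:13363410-13365053). Their input levels say only that the signal was near background. Un56 and Un71 were better measured in the IP, with 75% and 56.7% of values well above background. The IP level of Un56 was -1.64, -1.64 and -1.70 in sham and -1.68, -1.68 and -1.56 in CCI, and its matched difference of -1.72 in both groups was the lowest of all 99. Un71 followed at -1.70 and Un19, named after its values were seen, at -1.65. With both channels low, the matched ratio differences of Un56 and Un71 were -0.45 and -0.50.

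The highest ratio levels were modest. Un84 (chrUn:57588062-57589717, 10 probes) had a ratio of 0.72, 0.92 and 1.12 in sham and 0.71, 1.1 and 0.76 in CCI. Un79 (chrUn:52053761-52054863, 7 probes) had 0.96, 0.88 and 0.87 in sham and 0.74, 0.62 and 1.00 in CCI. Sham and CCI overlapped in both regions. Un46 (chrUn:25254054-25255589) ran from 0.56 to 0.97 and Un81 (chrUn:57269753-57271434) from 0.42 to 0.97, each with 10 probes and with its highest value on CCI 3. None of these 4 ratios stood above the matched range on all 6 arrays, although Un79, Un46 and Un81 did so in the IP, with matched IP differences of 1.42, 1.51 and 1.66. All IP values of those 3 regions were well above background. Against placed regions rebuilt from probes well above background in both channels, the IP differences were 0.55, -0.03 and 0.74, and none of the 6 high-IP regions stood above the matched range on all 6 arrays. At least 1 of these 6, the one also above in the ratio, had no probe left under this filter and could not be set against that range. In Un84 the IP was near its matched regions (0.11) and the input below them (-0.61). Under the same filter the matched ratio difference of Un84 was 0.84, and that of Un79 moved from 0.71 to -0.04.

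The 2 regions whose ratio did stand above the matched range had long probes and dim input. Un64 (chrUn:34001258-34002289) had 5 probes with a mean length of 56.6 nt, and 10.0% of its input values were well above background. Its matched ratio difference was 1.87 ± 0.17 in sham and 1.13 ± 0.23 in CCI. Un16 (chrUn:13191219-13192896), named after its values were seen, had 10 probes, 13.3% of input values well above background, and a matched ratio difference of 1.33 ± 0.39 in sham and 1.36 ± 0.08 in CCI. In both regions the IP was raised, by 1.22 and 1.24 over matched regions, with 60.0% of IP values well above background. No probe of either region was well above background in the input on all 6 arrays, so the size of these ratios rests on a dim denominator.

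In array order, 38 of the 99 regions fell into 3 stretches of at least 5 regions less than 100 kb apart. The longest held Un26 to Un47, 22 regions over 601 kb (chrUn:24699335-25300042). There the median matched input difference was 0.35 ± 0.10 in sham and 0.38 ± 0.10 in CCI, and the IP median moved the same way at 0.32 ± 0.01 and 0.34 ± 0.04. The ratio median was 0.05 ± 0.06 and 0.04 ± 0.10, so the medians of input and IP were raised together. Of the 22 regions 15 had a mean difference above 0 in the input and 14 in the IP, against 60 and 49 of all 99. Over probes well above background in both channels, where at least 3 were left, the input difference ran from -1.03 in Un47 to 1.45 in Un44. The IP difference then ran from -1.80 in Un43 to 1.60 in Un44. Neighbouring regions were not alike, since single regions of this stretch ran from -0.93 to 1.83 in the input. Un27 (chrUn:24703683-24707241), the region with the most probes (21), lay in it with matched differences of 0.59 ± 0.09 in the input and 0.57 ± 0.01 in the IP on the sham arrays.

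Un51 to Un60 (10 regions, chrUn:25659983-25813316) differed from that stretch, with an input median of -0.16 ± 0.08 in sham and -0.07 ± 0.05 in CCI and an IP median of -0.16 ± 0.03 and -0.20 ± 0.03. Un89 to Un94 (6 regions, chrUn:64354596-64587493) had a raised input median (0.49 ± 0.16 and 0.39 ± 0.08) without a raised IP median (-0.05 ± 0.05 and -0.11 ± 0.03), and its ratio median was -0.28 ± 0.15 and -0.29 ± 0.08. None of its 6 regions had a mean ratio difference above 0. In the input 4 of the 6 had a mean difference above 0, and the lowest was -0.52. Over probes well above background in both channels the input difference was -0.61 in Un90, -0.22 in Un91, 1.65 in Un93 and 0.39 in Un94. Of the 7 low-ratio regions 6 lay outside all 3 stretches, as did 61 of all 99 regions.

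**Figure D3:**
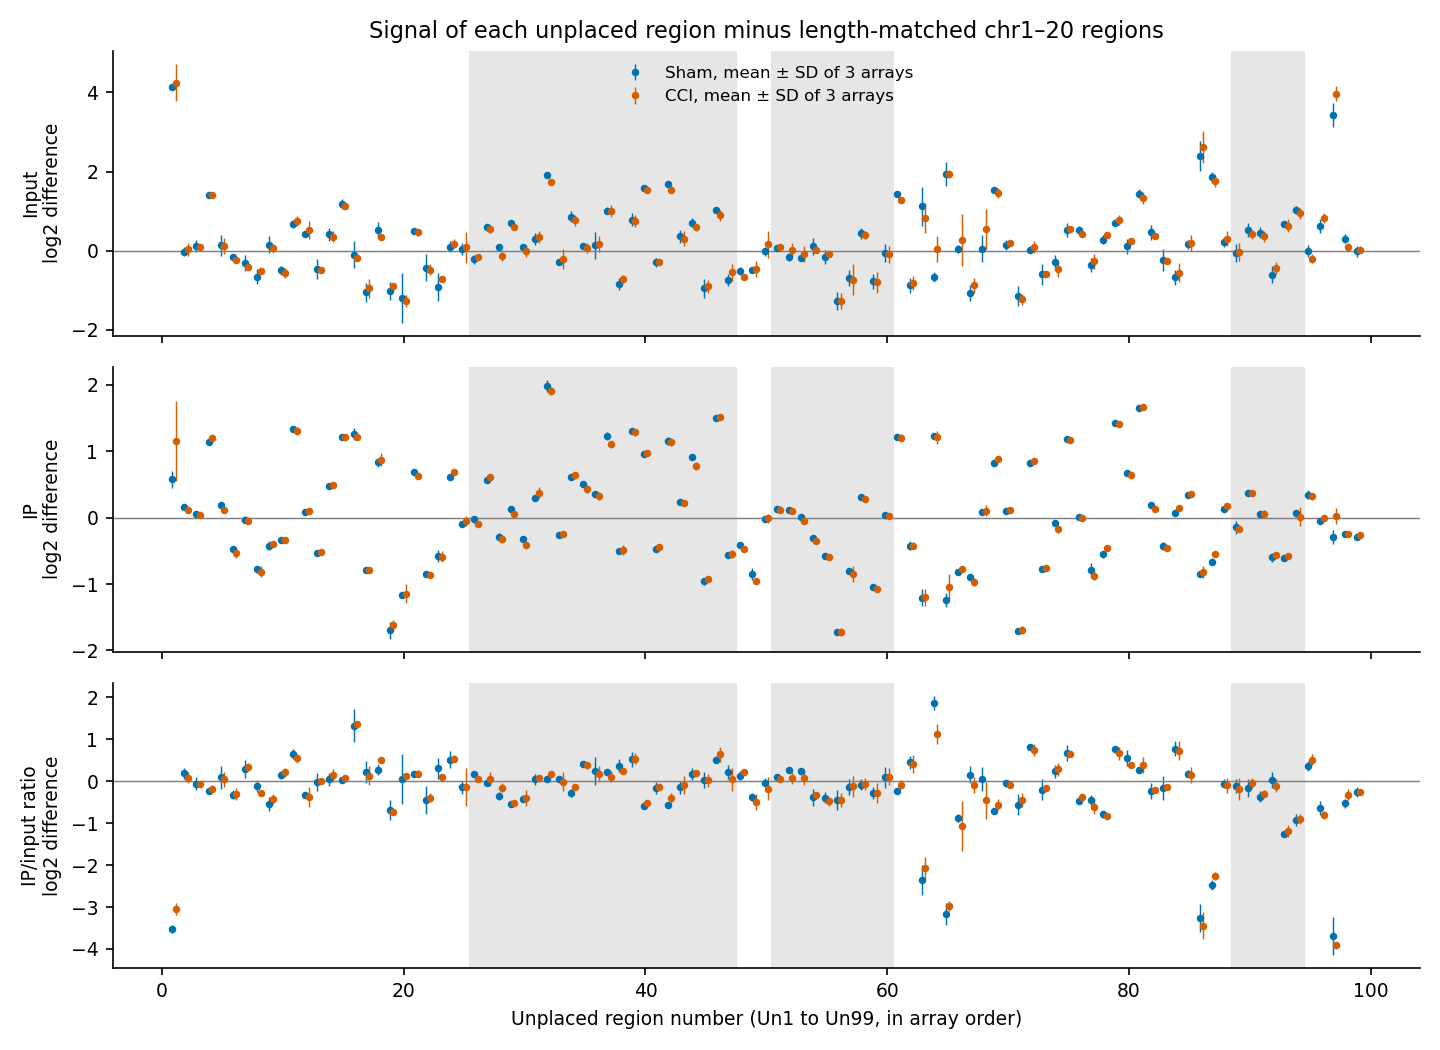
Matched difference (log2, y axes) of Un1 to Un99 in array order (x axis, region number) in the input, the IP and the ratio; points are the mean of 3 sham (blue) or 3 CCI (orange) arrays, bars are the SD, and grey bands mark the 3 stretches. Both groups trace the same profile, with the deep ratio troughs at Un1, Un63, Un65, Un86, Un87 and Un97 outside the bands.

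The profile of the unplaced regions was repeated from rat to rat. Between pairs of arrays the matched differences of the 99 regions had a Pearson r of 0.951 to 0.974 in the input, 0.975 to 0.997 in the IP and 0.944 to 0.975 in the ratio, as a description that shares probes and array design. In the input 41 regions lay above their matched regions on all 6 arrays and 28 below, and 30 changed sides. In the IP 48 lay above, 42 below and 9 changed sides, and in the ratio the counts were 29, 39 and 31. Probes within a region varied as much as in placed regions, with a median SD among probes of 1.65 against 1.63 in the input and 2.00 against 2.01 in the IP.

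The design asks whether nerve injury changed methylation. No unplaced region passed an adjusted p of 0.05 in limma (background 0% of 16023 regions in the ratio), and none did in the input (background 0%) or the IP (background 0.00624%, a single region, higher in CCI) when these were fitted in the same way. At an unadjusted p under 0.05 there were 3 unplaced regions in the ratio, 1 higher (background 0.549%) and 2 lower in CCI (background 2.08%), where 2.63% of all regions passed in either direction. The input had 2, both higher in CCI (background 0.537% in that direction). The IP had 10, or 10.1%, where 10.3% of all regions passed: 7 were higher in CCI (background 7.44%) and 3 lower (background 2.84%). Sham and CCI values did not overlap in 6 unplaced regions in the ratio, 3 higher (background 2.5%) and 3 lower (background 4.65%) in CCI and in 16 in the IP, 10 higher (background 12.2%) and 6 lower (background 5.22%). In either direction that was 6.06% in the ratio (background 7.15%) and 16.2% in the IP (background 17.4%). In the input they did not overlap in 10, all lower in CCI (10.1%, against a background of 4.7% lower, 1.71% higher and 6.41% in either direction). The median CCI minus sham difference of the 99 regions was -0.01 in the ratio, -0.03 in the input and 0.01 in the IP, and over all regions it was -0.02, -0.03 and 0.01. The median 95% interval of a region, not adjusted for the number of regions, reached 0.28 to either side in the ratio, 0.31 in the input and 0.08 in the IP. A shift has to be larger than that to pass the adjusted threshold, so these values are no detection limit.

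**Figure D4:**
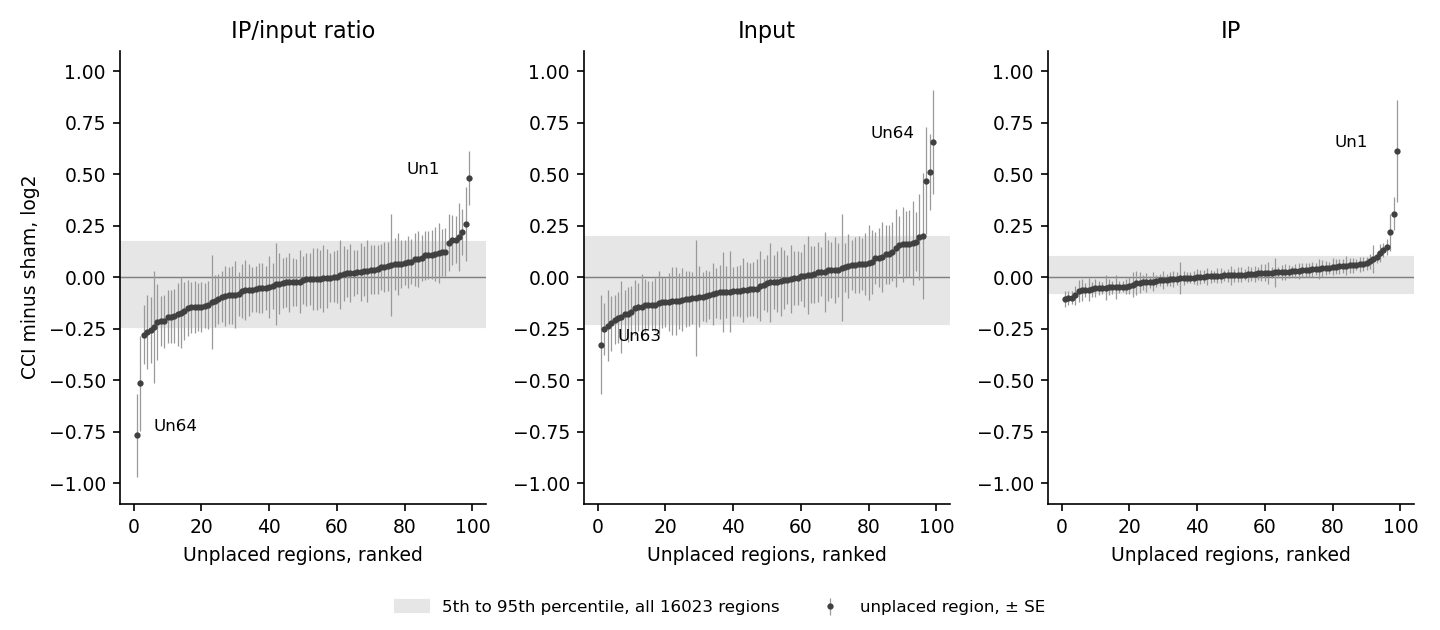
CCI minus sham (log2, y axis) of the 99 unplaced regions, ranked within the ratio, the input and the IP; bars are the standard error of the limma fit and the grey band holds the 5th to 95th percentile of all 16023 regions. Un64 has the lowest ratio difference and the highest input difference, and Un1 has the highest ratio and IP differences.

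Un64 had the largest ratio difference in either direction of all 16023 regions. Its ratio was 0.42, 0.93 and 0.94 in sham and 0.23, 0.23 and -0.46 in CCI. The groups did not overlap, with CCI 3 well below the rest. The difference was -0.77 (SE 0.20), with an unadjusted p of 0.00265 and an adjusted p of 1.00 in limma. The larger difference was in the dim input: the input difference was 0.66 (SE 0.25, adjusted p = 1.00) and the IP difference -0.05 (SE 0.06, adjusted p = 0.80). Without CCI 3 the ratio difference was -0.54, with the median of its 5 probes it was -0.27, and with normexp it was -0.15. With the slide as a block, and on slide 1 alone, it was -1.23 (adjusted p = 0.74 and 0.95), where CCI 3 is the only CCI array beside the sham arrays. Un68 (chrUn:40475408-40477040), named after its values were seen, had the next largest drop among unplaced regions, at -0.52 (SE 0.23, adjusted p = 1.00 in limma). Its ratio of -0.85, -0.20 and -0.51 in sham and -0.50, -1.09 and -1.51 in CCI overlapped, and its input was also dim, with 38.9% of values well above background. The difference of Un68 was -0.28 without CCI 3, -0.78 without CCI 1, -0.99 with the slide as a block and -0.15 with normexp.

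Un1 went the other way, with a ratio difference of 0.48 (SE 0.13), an unadjusted p of 0.0036 and an adjusted p of 1.00 in limma. As its per-array values above show, all 3 CCI ratios were higher than all 3 sham ratios. The IP difference was 0.61 (SE 0.25, adjusted p = 0.46) and the input difference 0.07 (SE 0.18, adjusted p = 1.00). Without CCI 3 the IP difference was 0.26 (adjusted p = 0.25), the input difference -0.15 (adjusted p = 1.00) and the ratio difference 0.36 (adjusted p = 1.00). With normexp the ratio difference of Un1 was 0.15 (adjusted p = 0.86). With the slide as a block the IP difference of Un1 was 1.32, with an adjusted p of 0.0016 in limma. That fit called 142 of all 16023 regions. On the slide that held both groups the IP difference of Un1 was also 1.32. The input difference was 0.51 in both (adjusted p = 0.99 with the slide as a block). CCI 3 was the only CCI array on that slide, so both values compare that array with the sham arrays. The part of CCI 3 in the result beyond these values was not tested.

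Un87 and Un28 (chrUn:24722643-24724092, 6 probes) also had higher ratios on all CCI arrays, by 0.22 (SE 0.11) and 0.18 (SE 0.11), both with an adjusted p of 1.00 in limma. The ratio of Un28 was -0.20, -0.14 and -0.29 in sham and 0.07, -0.12 and -0.03 in CCI, and the gap between the groups was small beside their spread. In Un28 the input was lower in CCI, by -0.25 (SE 0.13), and the IP difference was -0.01. Un26 (chrUn:24699335-24700274, 5 probes) and Un72 (chrUn:42817936-42819266, 9 probes, 38.9% of input values well above background) had lower ratios on all CCI arrays, by -0.14 (SE 0.11) and -0.08 (SE 0.11), again with an adjusted p of 1.00. With normexp background correction the sign turned in Un28, Un72 and Un87.

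In the IP alone the smallest unadjusted p among unplaced regions was in Un87, at 0.00389, with values of 0.46, 0.53 and 0.57 in sham and 0.63, 0.64 and 0.72 in CCI. The groups did not overlap and the difference was 0.15 (SE 0.04, adjusted p = 0.36 in limma). It was 0.0033 with normexp and 0.02 with the median of probes, and it turned to -0.06 over the probes well above background in both channels. Un97 had -1.86, -2.09 and -2.03 in sham and -1.65, -1.85 and -1.55 in CCI, again without overlap, a difference of 0.31 (SE 0.08, adjusted p = 0.36). With normexp the IP difference of Un97 was 0.04, with the median of probes 0.18, and 1 of its 3 probes was never well above background in the IP. Its input difference was larger, at 0.51 (SE 0.19, adjusted p = 1.00), and its ratio difference was -0.27. Among all 16023 regions 1 had a larger IP difference than Un1 and 23 had a larger one than Un97.

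**Figure D5:**
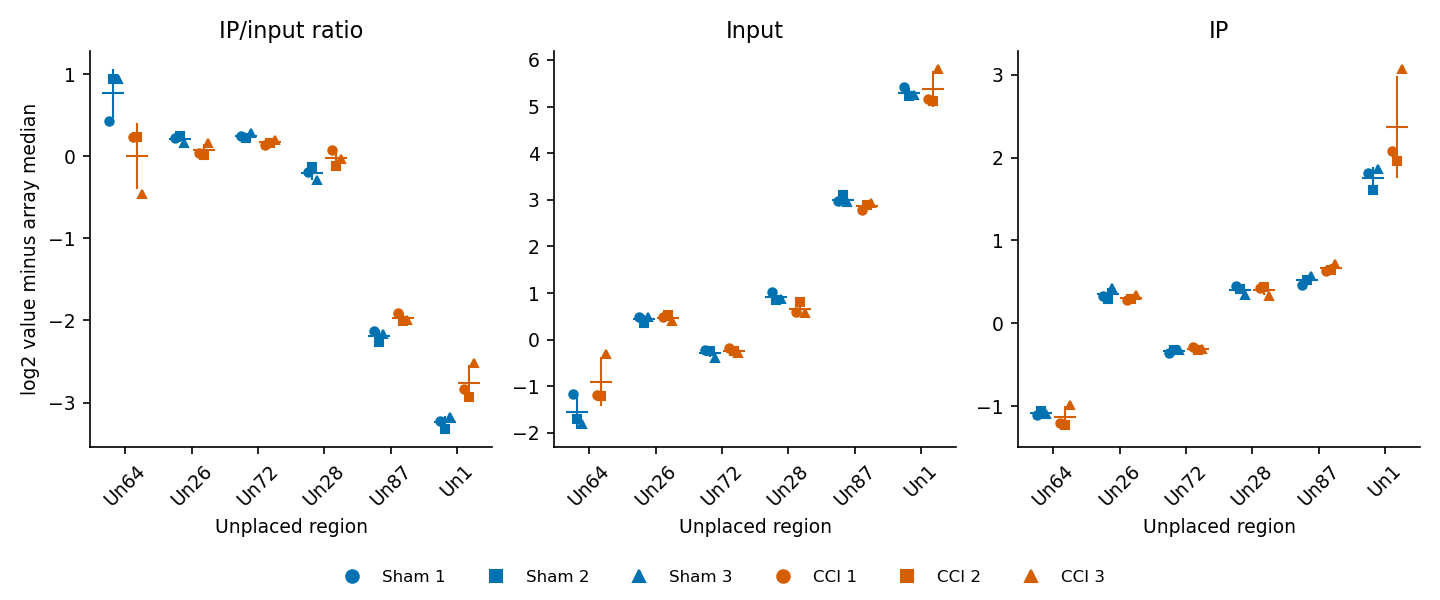
Ratio, input and IP level (log2 minus the array median, y axes) of the 6 unplaced regions whose sham and CCI ratios did not overlap, with 1 point per array and a bar for the mean ± SD of 3 arrays. Un64 and Un1 differ most between the groups, and in both CCI 3 (orange triangle) lies farthest from the sham arrays in the ratio.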

How the data were processed

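Each of the 6 two-colour arrays measured IP DNA (Cy5) against input DNA (Cy3) from a rat, per the labels. The authors deposited scanner files from Agilent Feature Extraction 11.0.1.1. Their processed intensity values had been background-subtracted and scaled per dye, per the file headers, which also give build rn4; median and background intensity and the deposited flags were used in alternatives. Control spots were left out and outlier spots set aside. For each probe log2 of red, of green and of red over green was taken and the array median subtracted, with no loess or quantile step. Regions were the mean of their probes. CCI and sham were compared with limma 3.58.1 (lmFit, eBayes) under R 4.3.3 over all 16023 regions; p-values were adjusted by Benjamini-Hochberg and called under 0.05. The ratio fit was checked on simulated data with 200 shifted regions. A shift of 1 log2 unit was called in 80.5% of them, with 6 false calls, and a shift of 0.5 in 0%. The input and IP fits were not checked in this way. Length bins with under 20 placed regions were joined to the next lower. Figures used matplotlib 3.10.9 under Python 3.11.15.

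The members and lists were chosen with earlier results of these data known. Named regions were the 6 highest and 4 lowest in matched input difference, the 4 highest and 4 lowest in ratio level, up to 4 per direction by unadjusted p among ratios without overlap, the region with the most probes, and any past the adjusted threshold; others are said to be named after their values were seen. The files give probe positions without gene names or probe sequences, and no rn4 genome was used here, so neither is printed. Replicate numbers were not taken to pair the samples, as the labels give no shared litter or batch. Same-numbered sham and CCI arrays had correlations of 0.161, 0.228 and 0.00874, not all over 0.1. Those of different numbers ran from -0.332 to 0.189. With so few arrays these values cannot exclude a pairing.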

Additional observations from a re-analysis of the deposited data

How the results depend on the processing

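No unplaced region was called in the ratio, the input or the IP under any alternative run, with 1 exception. Un1 was called in the IP with the slide as a block, as 1 of 142 regions called among all 16023. Slide 1 alone holds a single CCI array, so its calls are not counted here. The fit with the slide as a block has the same limit, because slide 2 holds no sham array. Its group difference also compares CCI 3 with the sham arrays, and the IP difference of Un1 was 1.32 in both fits. The replicate number as a block also gave 0 called regions in all 3 measures, and leaving out each array in turn gave 0 to 0. The median matched input difference, 0.13 over 6 arrays, was 0.0438 with normexp, 0.25 with the median of probes and 0.30 when matched per probe, and 0.11 to 0.13 without each array. The IP median of 0.01 was -0.0306 with normexp, 0.0446 with probes well above background in both channels, 0.12 with 3 classes of probe make-up and 0.11 per probe (0.01 to 0.02 without each array). The ratio median of -0.06 was -0.15 with bright input probes, -0.15 with probes bright in both channels and -0.14 per probe (-0.07 to -0.04 without each array). The 11 regions above in the input were 6 with bright input probes (of 64 regions left, 4 of them among the 11) and 6 with probes bright in both channels (of 63). These were 9.38% (background 3.44%) and 9.52% (background 3.52%). Un97 and Un65, both among the 11, kept under 3 probes under these filters and could not recur. The 2 below in the input were 1 with normexp, 0 under both bright filters and 4 on the CCI arrays alone (background 2.35%). Un56, Un20, Un71 and Un17, the lowest in the input, kept under 3 bright input probes and dropped out under both bright filters. The 6 above in the IP were 3 with probes bright in both channels (background 4.33%), 4 with 3 classes (background 4.36%) and 10 with matching on probe number too (background 4.33%). The 2 above in the ratio were 0 under both bright filters and with 3 classes, and 1 with a merge distance of 500 bp and with matching on probe number. These 2, Un64 and Un16, had no probe bright in the input on all arrays, so neither bright filter could return them. The 7 below in the ratio were 5 to 9 throughout. Of the 5 under each bright filter 4 (bright input, background 2.95%) and 3 (both channels, background 2.71%) were among the 7. Un63, Un65 and Un97 kept under 3 probes and dropped out under both filters, so only Un1, Un86, Un87 and Un93 could recur. Under the filter on both channels 0 of the 3 above and 0 of the 4 below in the IP were among the main ones. Un56, Un71 and Un19, the lowest in the IP, kept under 3 such probes and were not among the 63 regions left, so they could not recur. Without each array these counts ran from 11 to 11, 2 to 3, 6 to 8, 4 to 5, 2 to 2 and 7 to 8, for input above and below, IP above and below, and ratio above and below. CCI minus sham of the median over unplaced regions was -0.02 in the ratio (0.0133 with the median of probes, -0.04 to 0.00 without each array), 0.02 in the input (-0.03 to 0.07) and 0.03 in the IP (-0.0041 with normexp, -0.019 with the median of probes, 0.02 to 0.05). The sign of the CCI minus sham ratio difference turned with normexp in Un28 (-0.00772), Un72 (0.0105) and Un87 (-0.0933), and in Un87 with probes bright in both channels (-0.0542). The causes were not tested. The filter on probes bright in both channels, slide 1 alone, and the sham or CCI arrays alone were added after seeing the data. Adjusted limma p-values of Un64 and Un1 in the ratio stayed at or above 0.736 in all alternatives. Dim input on Sham 1, CCI 1 and CCI 3 limits what the ratio can show.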
